A study of Mus musculus with 17 samples.

Results

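The expression of 10 genes of the heat shock and cold responses was followed in lung RNA of wild-type (WT) mice and of mice with a knockout (KO) of Clic4, which encodes a chloride intracellular channel protein. They were taken by gene symbol from the authors' table and joined to the counts by Ensembl gene ID, which found 10 of 10 among the 54146 genes counted. The 8 heat shock members were Hspa1a, Hspa1b, Hsph1, Dnajb1, Hspa8, Hsp90aa1, Hspa5 and Hspe1, and the 2 cold-inducible members were Rbm3 and Cirbp. The libraries were of whole lung, and their strain was given as FVB/6DT1. They comprised 4 WT and 2 Clic4 KO libraries at day 0, from mice aged 6 weeks, and 6 WT and 5 Clic4 KO libraries at day 14, from mice aged 8 weeks, so day and age changed together. The labels give neither the procedure between day 0 and day 14, nor how the knockout was made, nor whether each library is a separate animal; p-values therefore measure the spread between these libraries, which may be technical. The design text gives other group sizes (5 WT and 6 KO at day 0, 2 WT and 6 KO at day 14), and the labels of the samples were followed.

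Heat shock proteins are chaperones that bind unfolded proteins and help them to fold. When unfolded protein accumulates in the cytosol, the transcription factor HSF1 binds heat shock elements, repeats of GAA and TTC, in the promoters of their genes, while stress of the endoplasmic reticulum acts on Hspa5 through another element. Rbm3 and Cirbp encode small glycine-rich RNA-binding proteins whose transcripts rise with mild cooling and fall with heat, so the set holds markers of both ends of the temperature response.

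The start-site windows of the members carry these elements in different forms, and they are shown because members that varied together between libraries differ in the elements they carry. RefSeq promoter entries (build GRCm38.p6) matched 7 of the 10 members; Hspa8, Hsp90aa1 and Rbm3 were not matched. The 250 bases before the start of Hspa1b (chr17:34959239-34959488, minus strand) and of Hspa1a (chr17:34972157-34972406, minus strand) overlap no gene in GENCODE M21. Capitals mark a heat shock element of 2 units (GAANNTTC or TTCNNGAA, which read the same on both strands), at bases -104 to -97 from the start.
Hspa1b: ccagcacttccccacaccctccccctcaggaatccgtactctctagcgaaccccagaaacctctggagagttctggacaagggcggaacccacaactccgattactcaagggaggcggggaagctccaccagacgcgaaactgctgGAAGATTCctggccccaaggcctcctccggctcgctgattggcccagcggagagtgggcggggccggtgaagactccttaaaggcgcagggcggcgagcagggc
Hspa1a: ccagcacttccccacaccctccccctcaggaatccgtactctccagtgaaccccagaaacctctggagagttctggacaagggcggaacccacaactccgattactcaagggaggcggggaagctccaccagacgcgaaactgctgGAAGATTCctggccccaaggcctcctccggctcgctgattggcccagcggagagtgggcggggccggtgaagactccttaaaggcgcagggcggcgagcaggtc
The windows of the pair were identical at 247 of 250 bases (98.8%).

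For 4 further members 30 bases around the match are shown, with the match in capitals. The Hsph1 site (chr5:149636351-149636380, minus strand, in the 5′ untranslated exon of Hsph1) has 1 heat shock element of 2 units. The Hspe1 site (chr1:55088053-55088082, plus strand) lies upstream of Hspe1, in an untranslated exon of Hspd1 on the other strand, and its capitals cover 3 overlapping elements of 2 units, which also make 2 of 3 units. The Hspa5 site (chr2:34772019-34772048, plus strand, in the 5′ untranslated exon of Hspa5) has an endoplasmic reticulum stress element (CCAAT and CCACG with 9 bases between them). The Cirbp site (chr10:80167589-80167618, plus strand, in an intron of Cirbp) has the mild cold octamer TCCCCGCC.
Hsph1: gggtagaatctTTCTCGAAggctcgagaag
Hspe1: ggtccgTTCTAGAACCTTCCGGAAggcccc
Hspa5: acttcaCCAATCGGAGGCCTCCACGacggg
Cirbp: ctgTCCCCGCCtcctagtcgctagcgggcg
Over all 32851 promoter entries, searched on both strands in windows of the same length, the heat shock element of 2 units was found in 12.8%, that of 3 units (GAA, TTC, GAA or TTC, GAA, TTC, with 2 bases between units) in 0.466%, the endoplasmic reticulum stress element in 0.113% and the octamer in 4.64%. The octamer also lies on the other strand of the Hspa1a and Hspa1b windows, and neither Dnajb1 entry held a heat shock element; the starts of both Dnajb1 entries, and of the second Cirbp entry, did not match a transcript of the gene in GENCODE M21. These matches describe letters in the windows only.

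Library totals ran from 20607811 to 35743830 expected counts, and mitochondrial genes took 1.98 to 2.58% of them. Clic4 measured 302 to 399 CPM (counts relative to the library total, which was scaled by TMM factors) in the KO libraries and 925 to 1281 CPM in the WT libraries, without overlap. Markers of lung were high in every group, with summed alveolar type 2 markers (4 genes) between 15250 and 21830 CPM and summed endothelial markers (3 genes) between 2565 and 3295 CPM.

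Per length, the members differed widely in level. The median over the 17 libraries was 794 FPKM (fragments per kilobase, a level scaled by gene length and depth) for Hspa8, the constitutive HSP70 of the cytosol. It was 350 FPKM for Hspa5, the HSP70 of the endoplasmic reticulum also called BiP, and 260 FPKM (259.6) for Hsp90aa1, the inducible cytosolic HSP90. Rbm3 (119 FPKM), Cirbp (71.0 FPKM), Hspe1 (70.5 FPKM) and Hsph1 (53.5 FPKM) lay in the middle of the order. Dnajb1 (21.1 FPKM), Hspa1b (19.1 FPKM) and Hspa1a (10.1 FPKM) were lowest. Cirbp and Hspe1 were neighbours whose ranges over libraries overlapped almost wholly, 48.3 to 100.2 FPKM and 57.8 to 103 FPKM, and Hspa5 and Hsp90aa1 overlapped from 240 to 431 FPKM and from 211 to 435 FPKM.

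Hspa1a and Hspa1b encode the stress-inducible cytosolic HSP70, and they varied most among the members between libraries of the same group. Hspa1b measured 61.0, 131, 38.7 and 49.7 CPM in the 4 WT day 0 libraries and 23.96 and 364.5 CPM in the 2 KO day 0 libraries. At day 14 it ran from 8.84 through a median of 92.4 to 337 CPM in 6 WT libraries, and it was 46.2, 131.5, 7.58, 9.91 and 38.4 CPM in the 5 KO libraries. The groups overlapped at both days, and the highest library was 48.1 times the lowest. The 2 KO day 0 libraries stood at opposite ends of the day 0 range. Hspa1a had nearly the same order of libraries (rho = 0.993 with group means removed), from 3.23 to 186 CPM over all libraries, a 57.7-fold range.

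The genes of this pair, chr17:34956436-34959238 and chr17:34969190-34972156, are nearly identical, so how reads were split between them is uncertain. Their coding sequences in GENCODE M21 agreed at 99.43% of aligned bases, with 8 mismatches, and their ends after the coding sequence at 47.49%. The CPM ratio of Hspa1b to Hspa1a stayed between 1.75 and 2.35 in all 17 libraries, with a median of 1.96. The summed pair ran from 10.8 CPM in KO day 14 library 3 to 551 CPM (550.7) in KO day 0 library 2. Hspa1a also shares 564 exonic bases with Gm20481 on the opposite strand, and whether the counting used strand is not stated in the sources used here.

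**Figure D1:**
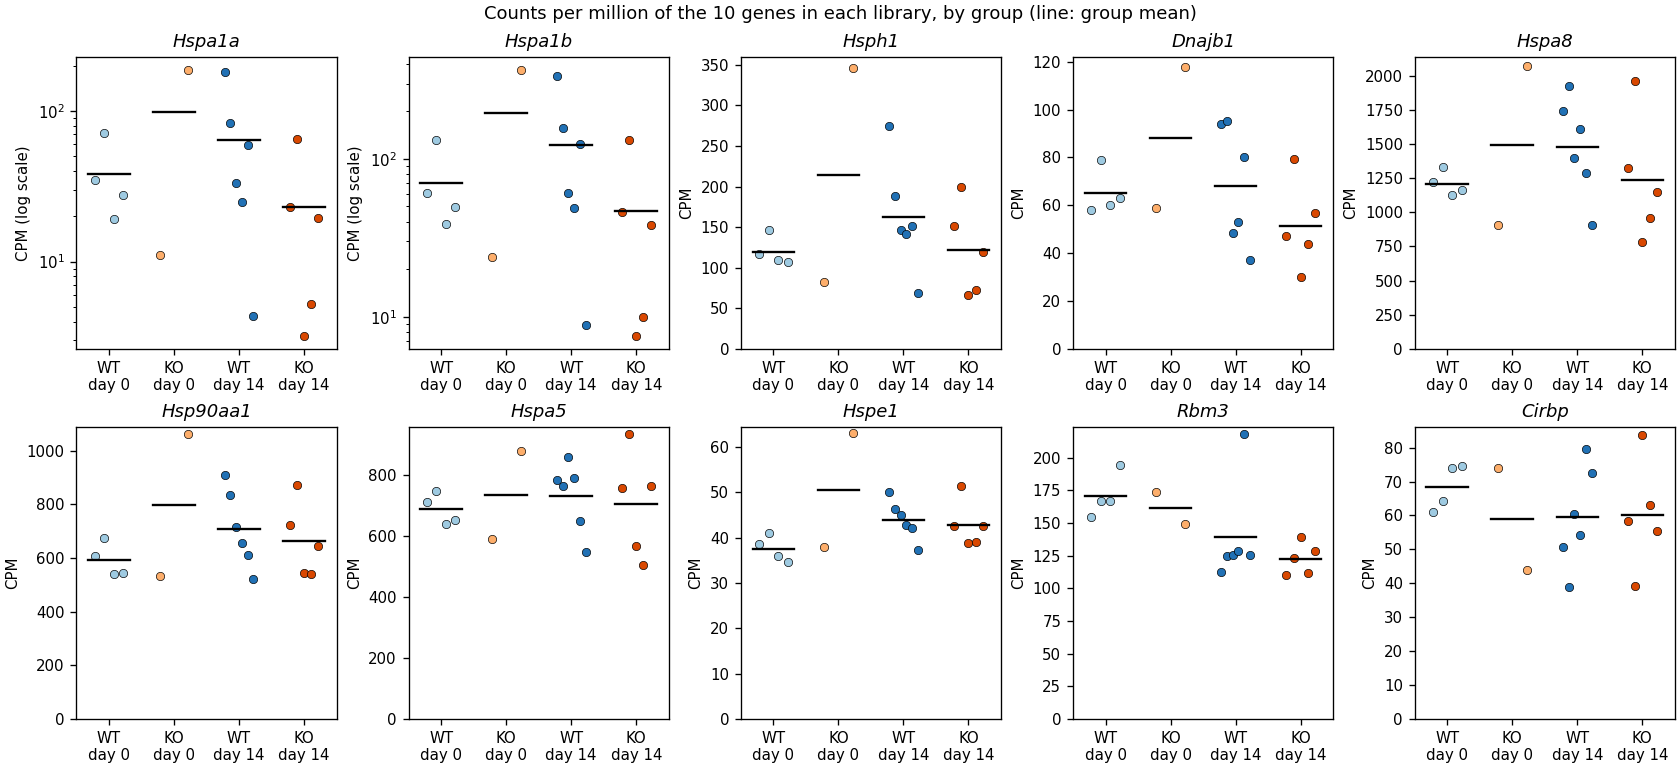
CPM of each of the 10 genes (y axis, log scale for Hspa1a and Hspa1b and from 0 for the others) in each library (points), by group (x axis), with the group mean as a line. In Hspa1b the 2 KO day 0 libraries lie at 23.96 and 364.5 CPM, while the 4 WT day 0 libraries lie between 38.7 and 131 CPM.

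Hsph1, the HSP110 that exchanges nucleotide on HSP70, had a similar order at a smaller amplitude. It measured 116, 147, 109 and 107 CPM in WT day 0 and 82.5 (82.55) and 346 CPM in KO day 0. At day 14 it ran from 68.3 (median 149.5) to 275 CPM in WT and was 152, 199.7, 66.7, 72.1 and 119 CPM in KO. The KO day 0 libraries again enclosed the WT libraries, and the day 14 groups overlapped. Dnajb1, an HSP40 that hands substrates to HSP70, ran from 29.9 to 118 CPM, a 3.93-fold range.

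Hspa8, although the most abundant, also moved by library. It measured 1220.0, 1329, 1124 and 1163 CPM in WT day 0 and 906 and 2071 CPM in KO day 0. At day 14 the WT libraries ran from 906 (median 1500.0) to 1921 CPM, and the KO libraries were 1320.0, 1959, 785, 961 and 1146 CPM. The WT day 0 libraries lay close together, and those of the other groups spread by 2.12 to 2.5 times. Hsp90aa1 ranged 2.03-fold, from 522 to 1061 CPM, and Hspa5 1.86-fold, from 504 to 935 CPM. Hspe1, the HSP10 partner of the mitochondrial chaperonin, had the smallest range of the 10 members, 34.6 to 63.0 CPM or 1.82-fold. It shares 112 exonic bases with its chaperonin partner Hspd1 on the opposite strand.

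The order of libraries was much the same in the heat shock members. KO day 0 library 2 was the highest of 17 libraries in 7 of the 8 and the second highest in Hspa5. The libraries with the lowest mean ranks over the 8 genes were library 6 of WT at day 14 (15.9 of 17) and libraries 3 and 4 of KO at day 14 (15.5 and 14.5). The 8 genes together took 0.502% of counts in KO day 0 library 2 and 0.207% in KO day 14 library 3. KO day 0 library 2 also had the highest sum of 6 fat markers, 130 CPM (130.2) against 32.7 to 49.8 CPM in the other day 0 libraries. In it the brown fat gene Ucp1 stood at 24.2 CPM, with at most 0.106 CPM in the others of day 0. All 6 fat markers were higher in it than in KO day 0 library 1, and none was at 0. At day 14 the fat sum ran from 42.0 to 94.0 CPM in WT and from 38.7 to 92.8 CPM in KO. Ucp1 was there highest, at 6.55 CPM, in KO library 3, the library with the lowest Hspa1b of all. Both KO day 0 libraries also stood apart from the 4 WT day 0 libraries in some summed markers. These were B cell markers (24.8 and 45.7 against 57.6 to 88.0 CPM) and T cell markers (33.4 and 38.1 against 41.7 to 59.2 CPM). The alveolar type 2 sum (19430 and 21830 against 15250 to 18750 CPM) also stood apart. So did the fat sum and the low thymus sum (0.42 and 0.45 against 0.50 to 0.68 CPM). The sums of alveolar type 1, airway, endothelial, heart and pulmonary vein muscle, blood, neutrophil and immediate early markers overlapped. With 2 against 4 libraries, groups can stand apart by order alone, so these gaps are not read as results. Singly, Cd3e of the T cell markers and Sftpb, Sftpa1 and Lamp3 of the alveolar type 2 markers overlapped between KO and WT at day 0. Cidea and Plin1 of the fat markers and Rag1 and Ptcra of the thymus markers overlapped too. Within groups the fat sum was related to Hspa1b, Hspa8 and Hspa5, as given below, and none of these relations passed (adjusted permutation p = 0.957 by r). The part of the B cell, T cell, thymus and alveolar type 2 markers in the chaperone values was not tested. Nor was the part of any of these markers in the difference of KO against WT. In bulk lung a change in the number of cells of a type and a change of RNA per cell cannot be told apart.

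**Figure D2:**
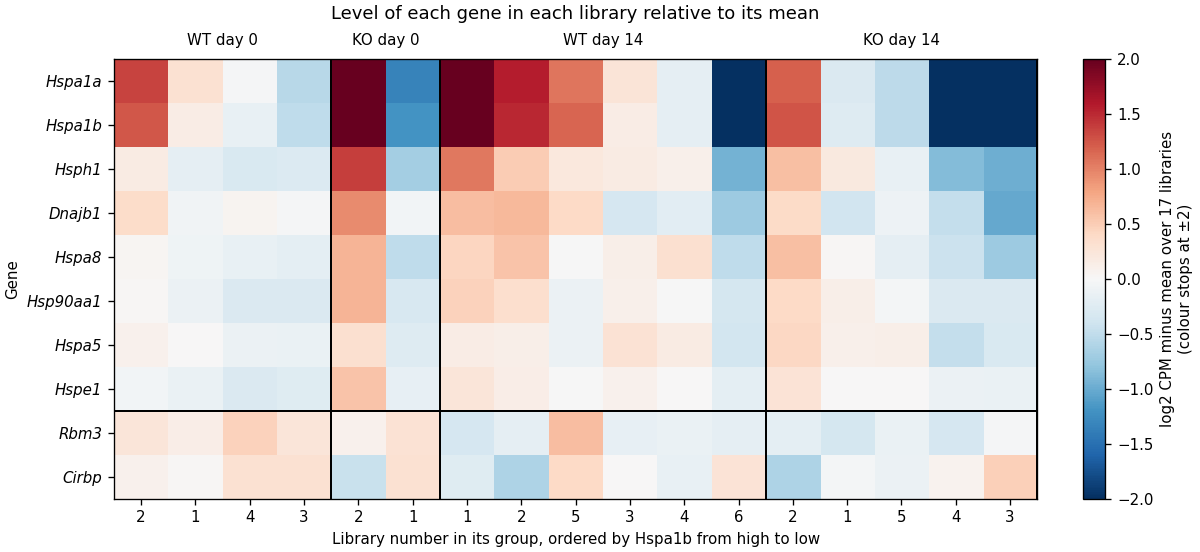
Each gene (y axis) in each library (x axis, ordered within its group by Hspa1b from high to low) as log2 CPM minus the gene's mean over 17 libraries, with colour stopping at ±2. The 8 heat shock genes tend to fall from left to right within groups, and Cirbp in the last line tends to rise. Exceptions lie in several groups. In WT day 14 Hspa5 is highest in library 3 (857 CPM) and Cirbp in library 5 (79.7 CPM). In KO day 14 Dnajb1 is higher in library 5 (56.7 CPM) than in library 1 (47.0 CPM), which has the higher Hspa1b.

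The spread within groups set the members apart in size. After the group means were removed, the SD of log2 CPM was 1.73 for Hspa1a and 1.69 for Hspa1b, against a median of 0.187 over the 19557 genes tested. They ranked 48 and 59 of 19557, and each ranked 1 among the genes within 1.5-fold of its mean level (3132 and 2360 genes). Hsph1 (SD 0.696) ranked 13 of 1597 such genes and Hspa8 (0.437) ranked 3 of 65. The SD was 0.502 for Dnajb1, 0.356 for Cirbp, 0.321 for Hsp90aa1, 0.277 for Hspa5, 0.24 for Rbm3 and 0.199 for Hspe1. Against genes of similar level all 10 members lay between the 87.6 and 100 percentile; Hspe1 lay at 88.2, where the median SD was 0.105. Variance within groups made up 55.7% (Rbm3) to 97.8% (Hspa5) of a member's variance, beside a median of 77.7% over all genes.

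**Figure D3:**
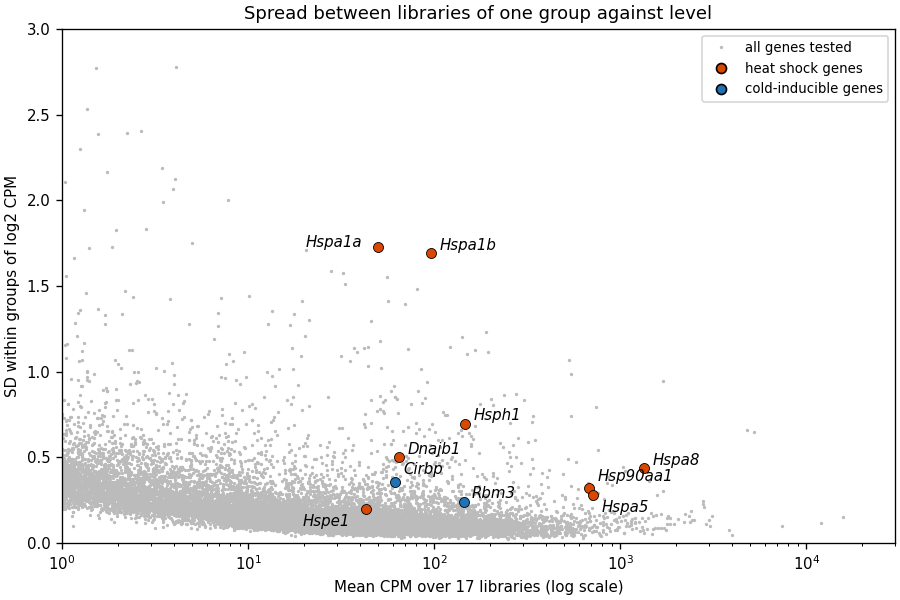
SD of log2 CPM within groups (y axis) against mean CPM (x axis, log scale) for the genes tested, with the 10 members named. Hspa1a (1.73) and Hspa1b (1.69) lie above the other genes of similar level, and Hspe1 (0.199) has the smallest SD of the members, where the median of all genes is 0.187.

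The first comparison asked how the members differed between knockout and wild-type lung at day 0. None of the 10 members was called by edgeR's quasi-likelihood test (adjusted p under 0.05 after Benjamini-Hochberg adjustment over 19557 genes), where 5 genes, 0.0256% of all tested, were called. At an unadjusted p under 0.05 there was 1 member, Hspe1, and 6.74% of all genes; limma-voom and DESeq2 also called 0 members. Hspe1 measured +0.43 on the log2 scale (SE 0.154, adjusted p = 0.676 by edgeR), from 37.5 ± 2.81 CPM (SD, n = 4) in WT to 50.5 ± 17.7 CPM (SD, n = 2) in KO. Hspa1b had the largest value, +1.47 (SE 1.26, adjusted p = 0.854 by edgeR), with a 95% interval of the fold from 0.502 to 15.3. The heat shock members share libraries and vary together, as given below, so their signs are not 8 separate results. All 8 heat shock members had positive values, with a median of +0.43 (log2) beside +0.00 (0.00073) over all genes, and both cold-inducible members had negative ones, -0.08 for Rbm3 and -0.21 for Cirbp. This direction rested on KO day 0 library 2: without it the lone KO library, assumed to vary like the other groups, gave Hspa1b -1.55 and turned the sign of 9 of the 10 members, while Hspe1 fell to +0.02.

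At day 14 the values of KO against WT pointed the other way in the heat shock members. None of the 10 was called by edgeR, where 21 genes (0.107%) were; 0 members and 8.95% of all genes had an unadjusted p under 0.05, and limma-voom and DESeq2 called 0. Hspa1b had -1.40 (SE 0.948, adjusted p = 0.716 by edgeR), with a fold of 0.38 and a 95% interval from 0.105 to 1.38. It became -0.77 without WT day 14 library 1 and -2.28 without KO day 14 library 2. Its means were 123 ± 118 CPM (SD, n = 6) in WT and 46.7 ± 50.4 CPM (SD, n = 5) in KO. The 8 heat shock members were all negative, with a median of -0.33 beside +0.00 (0.00109) over all genes, and the smallest difference was that of Hspe1, -0.04 (SE 0.11). These members share libraries and vary together, as given below, so their signs are not 8 separate results. On leaving out 1 library, Hspa5 turned sign in 3 of 17 cases and Hspe1 in 2. Rbm3 had -0.18 (SE 0.143) and Cirbp +0.02 (SE 0.204).

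The change of the knockout difference between days was tested as an interaction. Again 0 of the 10 members, and 0 genes (0%), were called by edgeR; 1 member and 4.55% of all genes had an unadjusted p under 0.05, and limma-voom and DESeq2 called 0 members. That member was Hspe1, with -0.46 (SE 0.19, adjusted p = 0.988 by edgeR), which became -0.05 (-0.051) without KO day 0 library 2. Hspa1b had -2.87 (SE 1.57, adjusted p = 0.988 by edgeR), which became +0.15 without KO day 0 library 2. Averaged over days, KO against WT called 0 members by edgeR beside 0.102% of genes, with 0 members and 10.1% of genes at an unadjusted p under 0.05 and 0 members by limma-voom and DESeq2. Hspa1b then had +0.04 (SE 0.797).

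**Figure D4:**
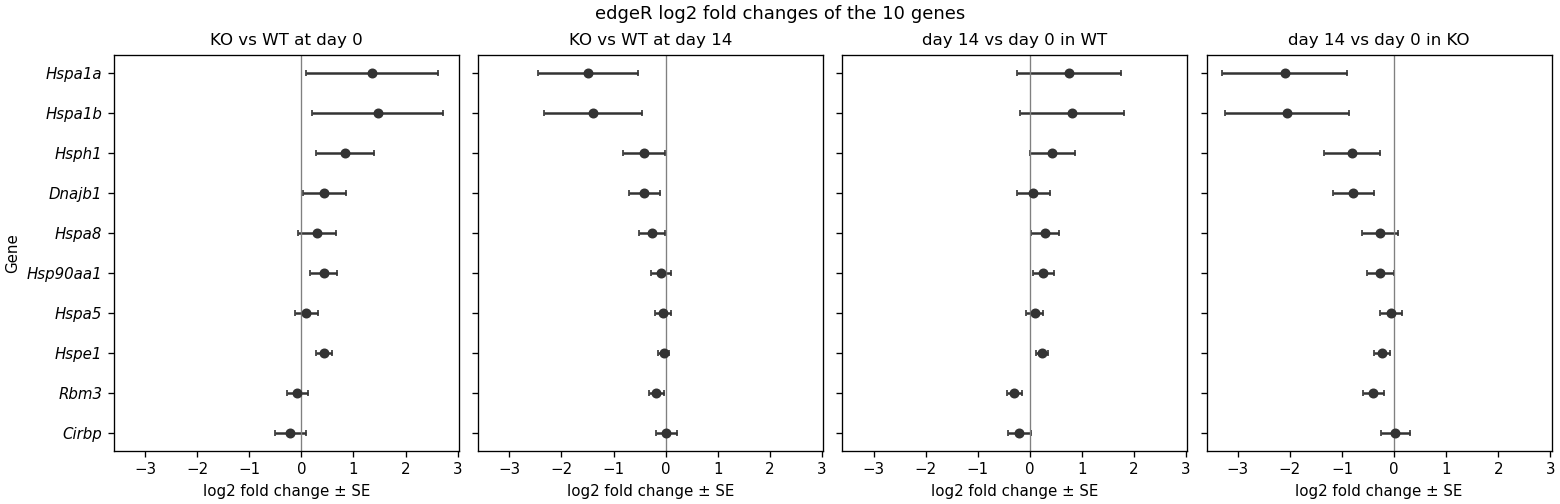
edgeR log2 fold changes (x axis, points with SE bars) of the 10 genes (y axis) in 4 comparisons. The heat shock genes lie above 0 in KO against WT at day 0 (median +0.43) and below 0 at day 14 (median -0.33), with the widest bars in Hspa1a and Hspa1b.

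Day 14 was compared with day 0 in each genotype, which share no libraries with each other but share groups with the comparisons of genotype. In WT 0 of 10 members were called by edgeR, as were 0 genes (0%), with 0 members and 9.06% of genes at an unadjusted p under 0.05 and 0 members by limma-voom and DESeq2. The 8 heat shock members had a median of +0.27, from +0.06 in Dnajb1 (SE 0.313) to +0.81 in Hspa1b (SE 0.997). In KO 0 members and 0 genes (0%) were called by edgeR, with 0 members and 9.05% of genes at an unadjusted p under 0.05 and 0 members by limma-voom and DESeq2. There the heat shock median was -0.53, and Hspa1b had -2.06 (SE 1.19), which became +0.96 without KO day 0 library 2.

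Rbm3, the cold-inducible RNA-binding protein on chromosome X (chrX:8138975-8145880), was lower at day 14 in most libraries. It measured 155, 166, 167 and 194 CPM in WT day 0 and 173 and 149 CPM in KO day 0. At day 14 it was 110.3, 123.5, 139.5, 112 and 128 CPM in KO, and ran from 112 (median 125) to 218 CPM in WT. The ranges of the KO groups lay apart, which 2 against 5 libraries can do by order alone. The share of all genes apart in this way is not given here. The WT groups overlapped through WT day 14 library 5 alone, at 218 CPM. The other 5 WT day 14 libraries lay between 112 and 128 CPM. Averaged over genotypes, day 14 against day 0 gave Rbm3 -0.35 (SE 0.123, unadjusted p = 0.0127, adjusted p = 0.217 by edgeR), which did not pass; 38 genes (0.194%) did. Rbm3 was the 1 member, beside 14% of genes, at an unadjusted p under 0.05, and limma-voom and DESeq2 called 0 members. Without WT day 14 library 5 the averaged value was -0.44 with adjusted p = 0.00659 by edgeR, where 251 genes (1.28%) were called. In WT alone it was -0.47 with adjusted p = 0.0202 by edgeR, where 22 genes (0.112%) were called. That library was singled out here by its own Rbm3 value, so these p-values depend on the outcome and give no independent support. Among the 6 WT day 14 libraries it also had the highest summed heart and pulmonary vein muscle markers (4 genes), 1698 CPM against 980 to 1265 CPM. Its fat sum (94.0 CPM) was the highest of the 6 as well. The part of these markers in its Rbm3 value was not tested. Leaving out any other library gave an adjusted p of 0.203 to 0.488 for the averaged value and of 0.558 to 0.768 in WT (edgeR). The number of all genes called in the average over genotypes was itself unstable, with 0 to 251 on leaving out 1 library and 0 in 8 of 17 cases. The summed neutrophil markers (3 genes) measured 33.8 to 78.67 CPM in WT day 0 and 78.7 to 399 CPM in WT day 14, although Retnlg among them overlapped. In KO the sums overlapped between the days, with 35.7 to 57.8 CPM at day 0 and 29.98 to 426 CPM at day 14. The sums were not tested between days. Their part in the Rbm3 values was not tested. Rbm3 shares 94 exonic bases with Rbm3os on the opposite strand.

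Cirbp, the other cold-inducible RNA-binding protein, overlapped between the days in both genotypes. It measured 61.0, 64.2, 74.1 and 74.4 CPM in WT day 0 and 73.9 and 44.0 CPM in KO day 0. At day 14 it ran from 39.0 (median 57.4) to 79.7 CPM in WT and was 58.5, 39.3, 83.8, 63.1 and 55.3 CPM in KO. All groups overlapped, and the averaged day value was -0.09 (SE 0.178, adjusted p = 0.87 by edgeR). Its lowest KO day 0 library was the library with the highest Hspa1b, and its highest KO day 14 library, library 3, was the one with the lowest Hspa1b.

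Whether members varied together within groups was tested for all 45 pairs, by Pearson's r and Spearman's rho of log2 CPM with group means removed over 17 libraries (two-sided permutation test, 100000 resamples within groups, Benjamini-Hochberg adjustment over 45 pairs). All 28 pairs of heat shock members were positive and passed by r, from 0.648 (Dnajb1 with Hspa5) to 0.999 (Hspa1a with Hspa1b), and 27 of them passed by rho. Hspa1a and Hspa1b agree at 99.43% of aligned coding bases, so how reads were split between them is uncertain. Their r is therefore not read as a result, and the counts of pairs here and below hold both as separate genes. The highest r of the other heat shock pairs was 0.974, for Hsph1 with each of these 2 genes. Hspa1b and Hspa8 gave r = 0.91 (permutation p = 0.00025, adjusted 0.000592) and rho = 0.875 (adjusted p = 0.00117), and r = 0.868 without the 2 libraries farthest from the median of Hspa1b. Hspa5, whose window holds the endoplasmic reticulum element in place of a heat shock element, gave r = 0.823 with Hspa1b (adjusted permutation p = 0.00321) and rho = 0.73 (adjusted p = 0.015). Without the 2 farthest libraries its r was 0.731.

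Cirbp ran against the heat shock members. Its 8 pairs with them were all negative and all passed, from r = -0.903 with Hspa8 (permutation p = 0.0004, adjusted 0.000857, rho = -0.922, adjusted 0.000315) to r = -0.737 with Hspa1b (permutation p = 0.0118, adjusted 0.0151, rho = -0.76, adjusted 0.00939). Without the 2 farthest libraries these became -0.857 and -0.67. The pair of Cirbp and Hspa1b did not pass without KO day 14 library 2 (r = -0.674, adjusted permutation p = 0.0554).

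Rbm3 did not share this pattern at the threshold. Its 8 pairs with heat shock members were negative, from r = -0.385 with Hsp90aa1 (adjusted permutation p = 0.186) to -0.013 with Dnajb1 (adjusted permutation p = 0.98), and none passed by r or by rho. With Cirbp it gave r = 0.537 (permutation p = 0.0501, adjusted 0.0609) and rho = 0.529 (adjusted p = 0.0572), and r = 0.429 without the 2 farthest libraries. In all, 36 of the 45 pairs passed by r. Total count, mitochondrial share and the summed immediate early, fat and blood markers were related in the same way to Hspa1b, Hspa8, Hspa5, Rbm3 and Cirbp. None of these 25 relations passed by r or rho (permutation tests, lowest adjusted p 0.957 for r and 0.925 for rho); the largest r without the 2 farthest libraries was 0.796, for the immediate early sum with Hspa5, which had r = 0.492 with all libraries.

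**Figure D5:**
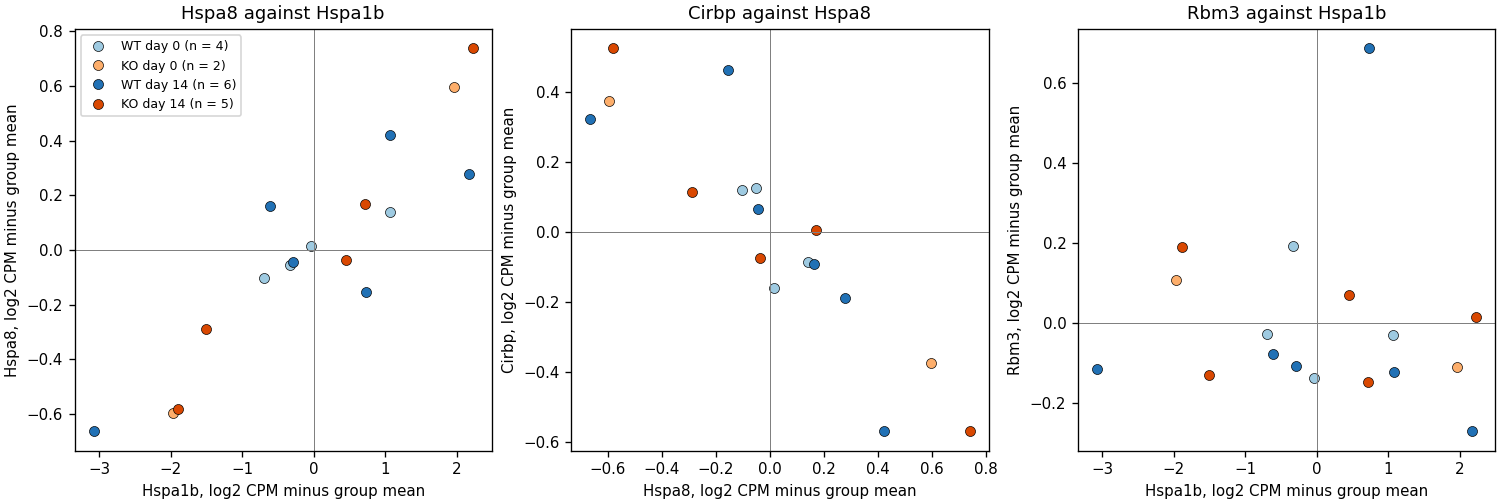
log2 CPM minus the group mean for 3 pairs of genes, 1 point per library and coloured by group. Hspa8 rises with Hspa1b (r = 0.91), Cirbp falls with Hspa8 (r = -0.903), and Rbm3 is scattered against Hspa1b (r = -0.093).

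Genes with the pattern most like each member were ranked by r of the same centred values among 11787 genes with a mean of at least 5 CPM, as a description. Hspa1b was followed, after Hspa1a, by Chordc1 (r = 0.985), Dnaja1 (0.982) and Cacybp (0.981), of which Dnaja1 is an HSP40 and Chordc1 an HSP90 co-chaperone. Hspa8 was followed by Ahsa2 (0.975), Cacybp (0.96), Dnaja1 (0.955) and Ahsa1 (0.95), the last an activator of the HSP90 ATPase. For Hspa5 the nearest genes were Manf (0.984), Pdia4 (0.959) and Hyou1 (0.947), which are chaperones and factors of the endoplasmic reticulum, and Dhh (0.938). Rbm3 had Phyh (0.865), Isoc1 (0.862), Ndufs1 (0.856) and Thnsl2 (0.85), and Cirbp had Pou6f1 (0.928), Slc22a23 (0.902), H1f0 (0.886) and Bbs4 (0.881). The libraries are shared by all of these values.

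The 5 lists of related genes were read in the same fits, and edgeR called 0 of their genes in any of the 7 comparisons. DESeq2 called Hnrnpa1 for day 14 against day 0 in WT, where it called 110 genes (0.563%) in all. In the average over genotypes it called Hnrnpa1 and Chac1, beside 490 genes (2.9%) in all. These calls are not read as a result about the lists. By edgeR the averaged values were +0.83 (SE 0.191, adjusted p = 0.0687) for Chac1, a glutathione-degrading enzyme of the unfolded protein response, and -0.18 (SE 0.0416, adjusted p = 0.0761) for Hnrnpa1, a splicing factor. In the cytosolic chaperone list, 30 of 41 genes had positive values in KO against WT at day 0 (median +0.10, log2) and 6 of 41 at day 14 (median -0.07). The 8 subunits of the chaperonin CCT, which folds actin and tubulin, were positive in 8 of 8 at day 0 (median +0.11) and in 2 of 8 at day 14 (median -0.02). At day 0 the mitochondrial list was positive in 7 of 10, the endoplasmic reticulum list in 22 of 29 and the RNA-binding relatives in 5 of 17, where all genes had a median of +0.00 (0.00073). At day 14 these counts were 3 of 10, 15 of 29 and 6 of 17. The cytosolic genes with the smallest p were Hspb8 at day 0 (+0.41, SE 0.165, adjusted p = 0.712 by edgeR) and Dnajb5 at day 14 (-0.27, SE 0.0865, adjusted p = 0.37 by edgeR). No gene of these lists passed by edgeR with all libraries in the fit, so the counts give signs of values and not changes.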

How the data were processed

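Whole lung RNA was sequenced in 17 libraries, made with Qiagen RNeasy and Illumina TruSeq v4 per the labels. The deposited files give expected counts per gene and a table of FPKM by the authors; the count unit is not named in the headers and was read from the values, 13.86 to 17.14% of which were not whole. Build mm10 with RSEM 1.3.0, STAR 2.5.3 and limma 3.38.3 are named in the submitters' processing notes; the annotation, filters and strand setting are not given in the sources used here. Within groups, no library repeated another.

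Expected counts were rounded, filtered with filterByExpr (19557 genes) and scaled with TMM (0.977 to 1.01). One edgeR 4.0.16 model held all 4 groups (glmQLFit robust, glmQLFTest). SE is the absolute log2 fold change over the square root of F, and 95% intervals use a normal quantile, which is narrow for so few libraries. Correlations used log2 CPM with a prior count of 2. limma-voom (limma 3.58.1), DESeq2 1.42.0, other scaling, filters, the FPKM table with pseudocounts of 1 and 0.1, and leaving out each library were the alternatives. The edgeR and correlation code was tested on simulated data. Coordinates are GENCODE M21 (GRCm38) and promoters RefSeq. The 10 members and the lists were chosen with earlier results of these data known. Members are always named; of the lists, only genes called by a tool or among the 4 smallest p of a comparison, apart from 4 named in the closing observations by their r; and the 4 genes nearest to 5 members by r among those with a mean of at least 5 CPM, leaving out gene models, clones and pseudogenes.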

Additional observations from a re-analysis of the deposited data

Results flagged for a closer look

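Rbm3 measured 218 CPM in WT day 14 library 5, and the next highest of the 6 WT day 14 libraries measured 128 CPM. The gap to it was 0.848 of the range of the group, above Dixon's 95% critical value of 0.625 for 6 samples. It was 1 of 30 gene and group combinations of at least 4 libraries that were checked, and chance alone sets apart about 1 in 20. That library also had the second highest Cirbp of the 17 libraries, 79.7 CPM, and its Hspa1b of 124 CPM lay inside the range of its group. The Rbm3 values between days with and without this library, and its muscle and fat marker sums, are given with the other values of Rbm3.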

How the results depend on the processing

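No paired analysis was possible because the titles carry no replicate numbers shared between groups. Under limma-voom, DESeq2, RLE scaling, no filter on low counts, each FPKM setting, the summed Hspa1a and Hspa1b pair and, for the 4 comparisons of 2 groups, only the libraries compared, the number of members called stayed at 0 in each comparison run. Leaving out each library in turn gave 0 to 1 members called for day 14 against day 0 in WT and 0 to 1 in the average over genotypes, the 1 being Rbm3, and 0 to 0 in the other 5 comparisons. The log2 value of Dnajb1 for day 14 against day 0 in WT turned from +0.06 to -0.0167 with limma-voom, to -0.0183 with log2(FPKM + 1) with and without the filter, and to -0.0222 with log2(FPKM + 0.1); the cause was not tested. Values that changed sign when 1 library was left out ran, for KO against WT at day 0, from -1.79 to 2.28 for Hspa1a, -1.55 to 2.38 for Hspa1b, -0.54 to 1.53 for Hsph1, -0.15 to 0.86 for Dnajb1, -0.42 to 0.78 for Hspa8, -0.15 to 0.84 for Hsp90aa1, -0.22 to 0.35 for Hspa5, -0.19 to 0.0236 for Rbm3 and -0.64 to 0.11 for Cirbp. At day 14 they ran from -0.18 to 0.047 for Hspa5, -0.11 to 0.0099 for Hspe1 and -0.13 to 0.13 for Cirbp. For day 14 against day 0 in KO they ran from -3.02 to 1.05 for Hspa1a, -2.97 to 0.96 for Hspa1b, -1.51 to 0.56 for Hsph1, -0.75 to 0.45 for Hspa8, -0.67 to 0.32 for Hsp90aa1, -0.32 to 0.26 for Hspa5, -0.56 to 0.18 for Hspe1 and -0.30 to 0.45 for Cirbp. The value ran from -0.0573 to 0.19 for Dnajb1 between days in WT and from -3.77 to 0.15 for the interaction of Hspa1b, and r of Hspa1b with Rbm3 from -0.421 to 0.047. Of the 45 pairs, 34 to 37 passed when 1 library was left out; Rbm3 with Cirbp passed with log2(FPKM + 1) (r = 0.542, adjusted permutation p = 0.0403). That pair also passed without 1 library in 4 of 17 cases. Over all genes, DESeq2 called 26, 109, 110, 97, 9, 156 and 490 genes and edgeR 5, 21, 0, 0, 0, 20 and 38, in the order KO against WT at day 0, at day 14, day 14 against day 0 in WT, in KO, the interaction, and the averages for genotype and day; limma-voom called 3 at day 0, 1 between days in WT and 19 for the average of day. Of the list genes, 0 to 2 were called by edgeR in the average of day when 1 library was left out. Values at day 14 that kept their sign still ranged from -2.36 to -0.83 for Hspa1a and from -2.28 to -0.77 for Hspa1b, and the interaction of Hspe1 from -0.78 to -0.051. Depth was no limit on detecting the members, whose lowest value was 3.23 CPM, while 2 KO day 0 libraries limit each comparison that uses them.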

Other observations

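Genes of the 5 lists were also set against the members by r of the centred log2 CPM over the 17 libraries, as a description with shared libraries and no test. All 8 CCT subunits had a positive r with Hspa1b (median 0.877, highest Cct6a at 0.969) and a negative one with Cirbp (median -0.759), beside medians of -0.011 and 0.006 over all genes. Of the 41 cytosolic chaperones and co-chaperones, 34 were positive with Hspa1b (median 0.654) and 37 negative with Cirbp (median -0.643). The mitochondrial list was mixed, with a median of 0.165 with Hspa1b, although Hspd1, the chaperonin partner of Hspe1, stood at 0.963. In the endoplasmic reticulum list the median was 0.699 with Hspa5 and 0.531 with Hspa1b, and Calr had the lowest r with Cirbp of that list, -0.902.

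Among RNA-binding relatives, Srsf5, a splicing factor, had an r of 0.75 with Cirbp and of -0.809 with Hspa1b. The median of that list was near 0 with each of Hspa1b (0.021), Rbm3 (0.095) and Cirbp (-0.082). The list genes named here were picked after their values were seen.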
